A study of Mus musculus with 14 samples.

Results

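The receptors described here are 9 members of the tumour necrosis factor (TNF) receptor superfamily other than RANK, the receptor for RANKL: Tnfrsf1a, Tnfrsf1b, Tnfrsf9, Tnfrsf12a, Tnfrsf21, Tnfrsf10b, Ltbr, Fas and Cd40. They were followed by H3K27ac, the histone acetylation found at active promoters and enhancers, and by binding of the transcription factor ONECUT2. A region or site was counted for a receptor when that gene was the nearest of 21900 protein-coding gene spans and lay within 100 kb. By this rule 32 of 55050 H3K27ac regions, each 2000 bp wide, belonged to 8 of the 9 genes, and all 32 passed the filter on low counts. Of 7268 listed ONECUT2 sites, 10 belonged to 4 of the genes. A region may act on a gene other than its nearest.

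The libraries came from small intestinal organoids, cultures of gut epithelium grown from stem cells, of a single line (line26 wild type, Lgr5GFPDTR/+) from a female mouse carrying a GFP and diphtheria toxin receptor allele at Lgr5. Control organoids grew in ENR, a medium named for EGF, Noggin and R-spondin 1. The other arm had 3 days of ENR with 3 µM CHIR99021, a GSK3 inhibitor that activates Wnt signalling, and 1.5 mM valproic acid, a histone deacetylase inhibitor. After 1 day in ENR it received 100 ng/mL RANKL for 6 days, a protocol that enriches for microfold (M) cells. The comparison is therefore of the whole protocol with ENR medium, and RANKL alone cannot be told apart from the earlier steps. H3K27ac and ONECUT2 were each profiled in 3 libraries per arm from 3 independent differentiation experiments, with 250000 cells per replicate. All libraries share the line, so p-values measure the spread between these experiments.

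TNF receptors sit in the cell membrane and are engaged by trimeric ligands of the TNF family. Tnfrsf1a (TNF receptor 1), Fas, Tnfrsf10b (the mouse receptor for TRAIL) and Tnfrsf21 (death receptor 6) carry a cytoplasmic death domain, through which such receptors can recruit adaptors such as FADD or TRADD and activate caspases. Tnfrsf1b (TNF receptor 2), Ltbr (the lymphotoxin beta receptor), Cd40, Tnfrsf9 (4-1BB) and Tnfrsf12a (the receptor for TWEAK) lack that domain and bind TRAF adaptors, which lead to NF-kappaB signalling. In the gut, these receptors are known for inflammatory signalling and death of epithelial cells, and Ltbr for the formation of Peyer's patches.

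H3K27ac libraries held 5434172 to 9160267 reads in regions in the ENR arm and 2745451 to 3902301 in the RANKL arm, and library pairs within an arm differed by more than sampling noise. A region or gene is called higher or lower below an adjusted p of 0.05 in the quasi-likelihood test of edgeR, with the Benjamini-Hochberg method over all regions or all genes. By this rule 14.8% of the 54765 regions tested were higher in the RANKL arm and 21.0% were lower. Epithelial marker genes were marked in both arms, with Epcam, the epithelial adhesion molecule, at 408 ± 18.9 CPM in ENR and 505 ± 8.79 with RANKL (SD, n = 3; CPM are read counts scaled to the normalised depth of each library). Of the 7 epithelial markers 3 were higher, Epcam among them, and 4 lower. Of 10 M cell marker genes 8 were higher and 2 not called. Over all genes 25.0% were higher and 26.9% lower. The transcription factor Sox8 moved from 7.32 ± 1.75 to 84.9 ± 10.1 CPM.

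Region sequences were not read, and the promoters of the 4 receptors with an H3K27ac region across the start site are printed here so that those regions can be placed. Each run is the 250 bases 5′ of the start on the gene's strand, from RefSeq on GRCm38.p6 (mm10). Capitals mark the only match among them to a set of motifs described further on, an AP-1 motif. The run of Tnfrsf21 is chr17:43016305-43016554 on the + strand, that of Ltbr chr6:125313886-125314135 on the - strand, that of Fas chr19:34290409-34290658 on the + strand and that of Tnfrsf1b chr4:145246871-145247120 on the - strand.
Tnfrsf21: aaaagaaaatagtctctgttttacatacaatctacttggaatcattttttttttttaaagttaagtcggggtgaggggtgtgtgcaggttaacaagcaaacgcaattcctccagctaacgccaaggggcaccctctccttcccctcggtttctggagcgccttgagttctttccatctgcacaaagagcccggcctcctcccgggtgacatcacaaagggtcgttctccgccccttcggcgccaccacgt
Ltbr: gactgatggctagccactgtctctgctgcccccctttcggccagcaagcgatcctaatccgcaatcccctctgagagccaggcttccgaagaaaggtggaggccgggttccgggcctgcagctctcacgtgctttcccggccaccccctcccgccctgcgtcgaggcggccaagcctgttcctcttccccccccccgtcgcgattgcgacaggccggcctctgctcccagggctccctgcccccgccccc
Fas: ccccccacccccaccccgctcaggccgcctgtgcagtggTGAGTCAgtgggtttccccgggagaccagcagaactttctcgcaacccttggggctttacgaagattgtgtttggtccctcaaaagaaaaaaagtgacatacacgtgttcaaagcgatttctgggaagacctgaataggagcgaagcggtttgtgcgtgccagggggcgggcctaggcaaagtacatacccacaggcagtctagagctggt
Tnfrsf1b: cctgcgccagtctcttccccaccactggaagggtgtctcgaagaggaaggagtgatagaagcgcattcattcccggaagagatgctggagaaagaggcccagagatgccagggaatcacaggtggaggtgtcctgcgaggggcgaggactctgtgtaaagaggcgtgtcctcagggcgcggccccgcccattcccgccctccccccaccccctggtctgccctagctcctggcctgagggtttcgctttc

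Summed over all regions of each gene, H3K27ac was higher with RANKL at 2 of 8 receptors (Tnfrsf1b and Tnfrsf1a), lower at 1 (Ltbr) and not called at 5. Over all 15906 genes tested, 25.0% were higher and 26.9% lower by the same test, 3981 and 4278 genes. With the library scaling of the regions the median gene moved by -0.15 on the log2 scale, and 2586 genes were higher and 6122 lower. The median log2 fold of the 8 receptors was 0.12, against 0.013 over all genes. Gene sums grow with the number of regions, so their levels are not compared between genes. Fewer cells carrying the mark and less of the mark per cell cannot be told apart in these bulk libraries.

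**Figure D1:**
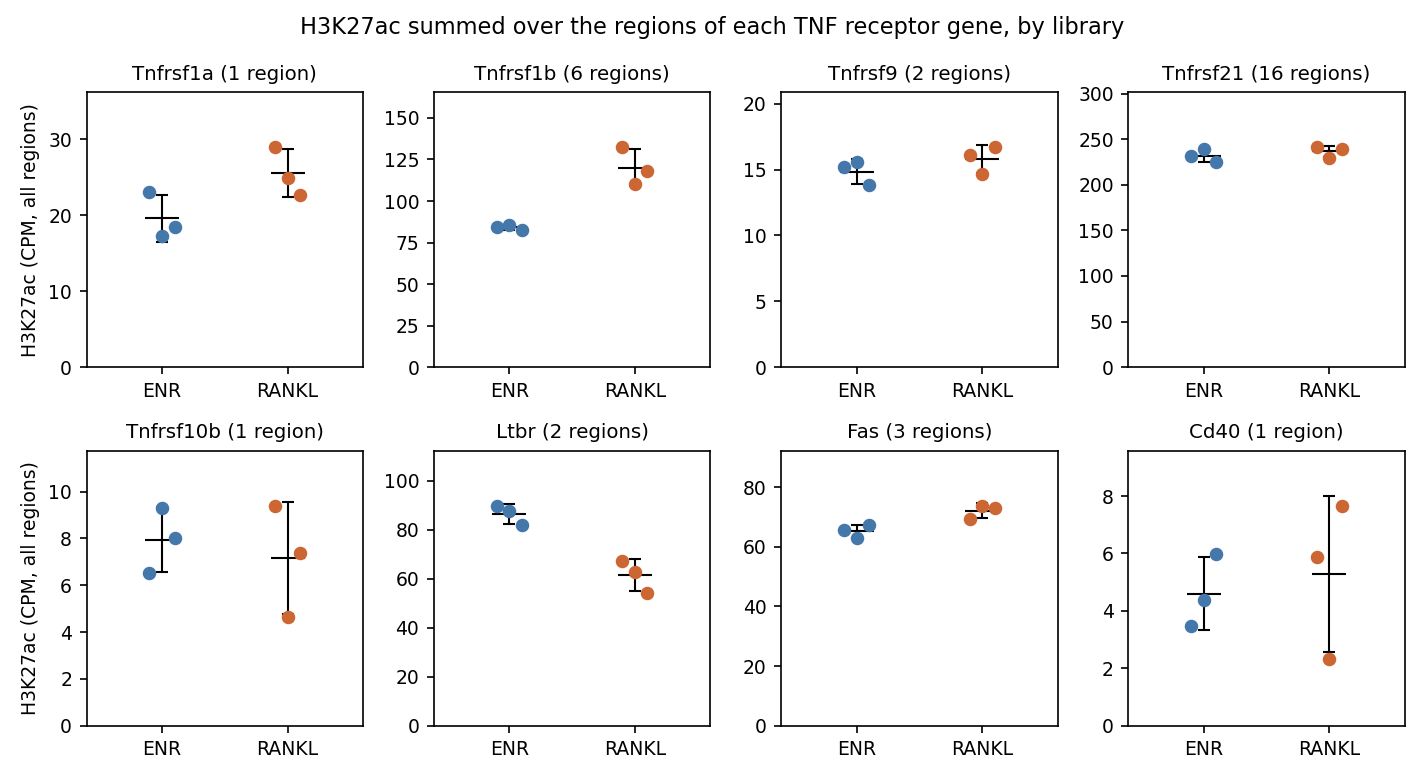
H3K27ac summed over all regions of each receptor gene (y axis, CPM; axes differ between panels) in the 3 ENR and 3 RANKL libraries; points are libraries, and bars give the mean and SD. The RANKL libraries lie above ENR for Tnfrsf1b and Fas and below for Ltbr, and the groups overlap in the other 5 panels.

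Region by region, 7 of the 32 receptor regions were higher, 7 lower and 18 not called, beside the 14.8% and 21.0% of all regions. The groups did not overlap at 16 of the 32 regions, against 44.9% of all regions, and 6 were called with a log2 fold of at least 1 in size, against 11.4%. These 6 lay at 3 genes: Tnfrsf21 (2 higher, 2 lower), Tnfrsf1b (1 higher) and Ltbr (1 lower). The median log2 fold over the 32 regions was -0.056, and over all regions 0.057.

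**Figure D2:**
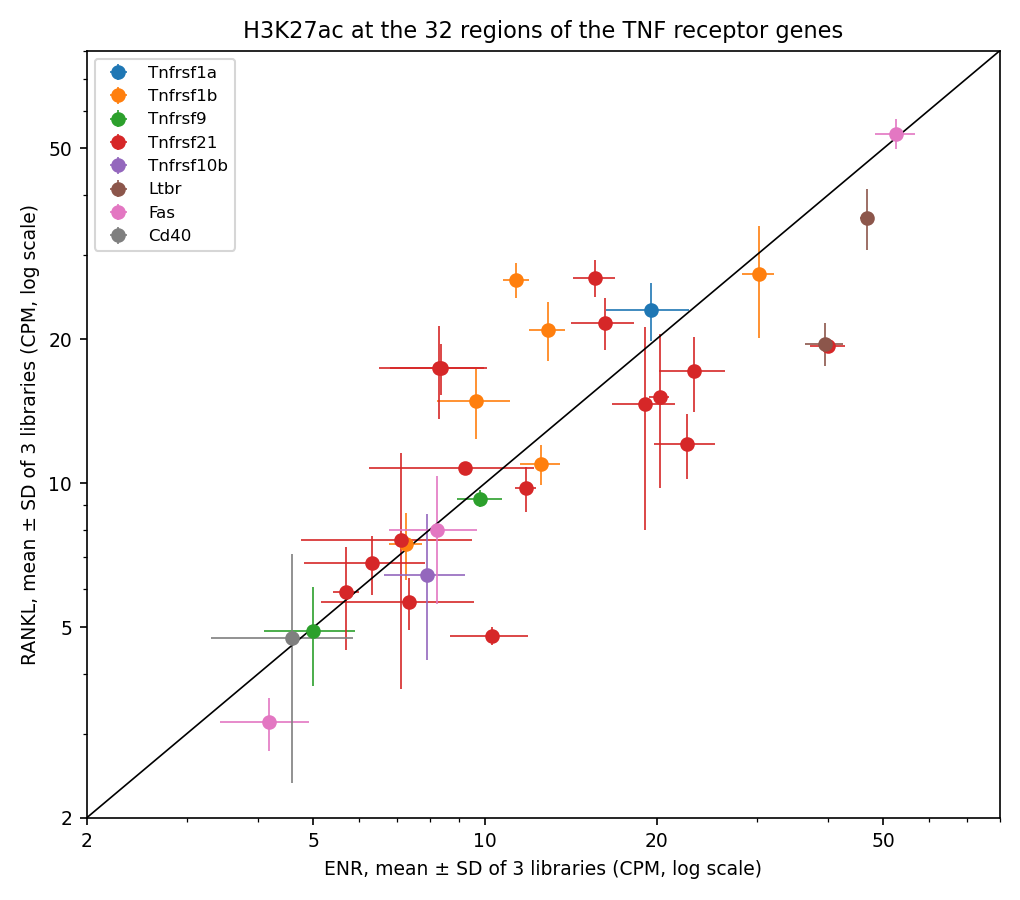
Mean H3K27ac of each of the 32 receptor regions in ENR (x axis) and RANKL (y axis), both in CPM on log scales, coloured by gene, with SD bars over 3 libraries; the line marks equal values. Regions of Tnfrsf21 lie on both sides of the line, from a log2 fold of -1.12 to 1.05, and both Ltbr regions lie below it.

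Of the death-domain receptors, Tnfrsf21 had the most regions, 16, and single regions were called in both directions while the gene sum was not called. The sum was 231.6, 239.7 and 225.0 CPM in ENR and 241.4, 229.9 and 238.9 CPM with RANKL. The groups overlapped, with a log2 fold of 0.026 ± 0.055 (SE, edgeR adjusted p = 0.714) whose sign turned under 3 other scalings. Among the 16 regions, 4 were higher, 5 lower and 7 not called. A test of whether the regions of a gene changed by unequal folds gave F = 12.0 (edgeR diffSpliceDGE, adjusted p = 9.96e-25), where 54.3% of 9740 genes with several regions were called. That test pools the regions of a library as if they were independent. The effect of this on its p-values was not tested, so they are not taken at face value.

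At the Tnfrsf21 start site, in the region chr17:43015466-43017466 that holds the promoter printed above, H3K27ac was 43.3, 38.1 and 38.6 CPM in ENR and 18.9, 19.9 and 19.3 CPM with RANKL. All 3 RANKL libraries lay below all 3 ENR libraries. The log2 fold was -1.04 ± 0.14 (SE, edgeR adjusted p = 9.84e-12), 2.05-fold lower. A change of this direction was common at such places, since 45.4% of regions within 2 kb of a gene end were lower and 7.63% higher, with a median log2 fold of -0.30.

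Upstream of that start, all 3 regions of Tnfrsf21 were higher, the opposite direction. The region centred 10.9 kb upstream (chr17:43004692-43006692) had 8.50, 9.90 and 6.75 CPM in ENR and 15.0, 18.4 and 18.8 CPM with RANKL. Its groups did not overlap, and the log2 fold was 1.04 ± 0.21 (edgeR adjusted p = 8.49e-06). The region 41.0 kb upstream (chr17:42974565-42976565) averaged 15.6 ± 1.34 CPM in ENR and 26.8 ± 2.37 CPM in RANKL libraries (SD, n = 3). This was a log2 fold of 0.76 ± 0.16 (adjusted p = 1.93e-05). Between them, the region 34.5 kb upstream had a log2 fold of 0.41 (adjusted p = 0.0446), and its call was lost with the experiment number as a block (adjusted p = 0.0616) and with DESeq2 (0.119). Without ENR replicate 1, ENR replicate 2, RANKL replicate 1 or RANKL replicate 3 its adjusted p lay between 0.0727 and 0.181. The upstream regions lay 97.9 to 128 kb from the next gene, Cd2ap.

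Within the gene, a region centred 13.2 kb past the start (chr17:43028759-43030759) was also higher. It had 6.76, 10.2 and 7.88 CPM in ENR and 17.5, 13.6 and 21.2 CPM with RANKL, for a log2 fold of 1.05 ± 0.21 (edgeR adjusted p = 6.87e-06). All RANKL libraries were above all ENR libraries there. Farther along the gene, the region at 52.8 kb was lower with a log2 fold of -0.44 (adjusted p = 0.0249), a call lost by library size scaling (adjusted p = 0.0978), with DESeq2 (0.0989), with the signal trend removed (0.290) and without ENR replicate 1, RANKL replicate 2 or RANKL replicate 3.

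Past the far end of Tnfrsf21, 3 of 8 regions were lower and 5 not called. The region 141.7 kb past the start (chr17:43157298-43159298) had 10.0, 12.0 and 8.81 CPM in ENR and 5.00, 4.83 and 4.58 CPM with RANKL. These groups did not overlap, and the log2 fold was -1.12 ± 0.29 (edgeR adjusted p = 5.44e-04). At 160.8 kb, the mean was 22.6 ± 2.77 CPM in ENR and 12.1 ± 1.86 CPM in RANKL libraries (SD, n = 3), a log2 fold of -0.91 ± 0.18 (adjusted p = 4.70e-06). The lower call at 122.0 kb rested on RANKL replicate 3, with a log2 fold of -0.46 (adjusted p = 0.0409) and -0.13 (adjusted p = 0.673) without that library, and its groups overlapped. Without ENR replicate 1, ENR replicate 2 or RANKL replicate 2 its adjusted p lay between 0.0647 and 0.203, and by library size, DESeq2 or trend removal between 0.138 and 0.233.

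The 7 uncalled regions of Tnfrsf21 had log2 folds between -0.38 and 0.19. The farthest assigned region lay 87.2 kb outside the gene, and the next one beyond it, 101.1 kb away and nearest to Adgrf1, had 10.0 ± 1.39 CPM in ENR and 8.31 ± 0.91 CPM with RANKL. That region was not called (log2 fold -0.28 ± 0.25, edgeR adjusted p = 0.411). On the upstream side the first region beyond the set lay 76.9 kb away but nearer to Cd2ap, with 25.1 ± 0.94 and 35.2 ± 1.12 CPM. It was called higher (log2 fold 0.49 ± 0.13, adjusted p = 0.00142), so the higher upstream regions did not end with the Tnfrsf21 set.

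**Figure D3:**
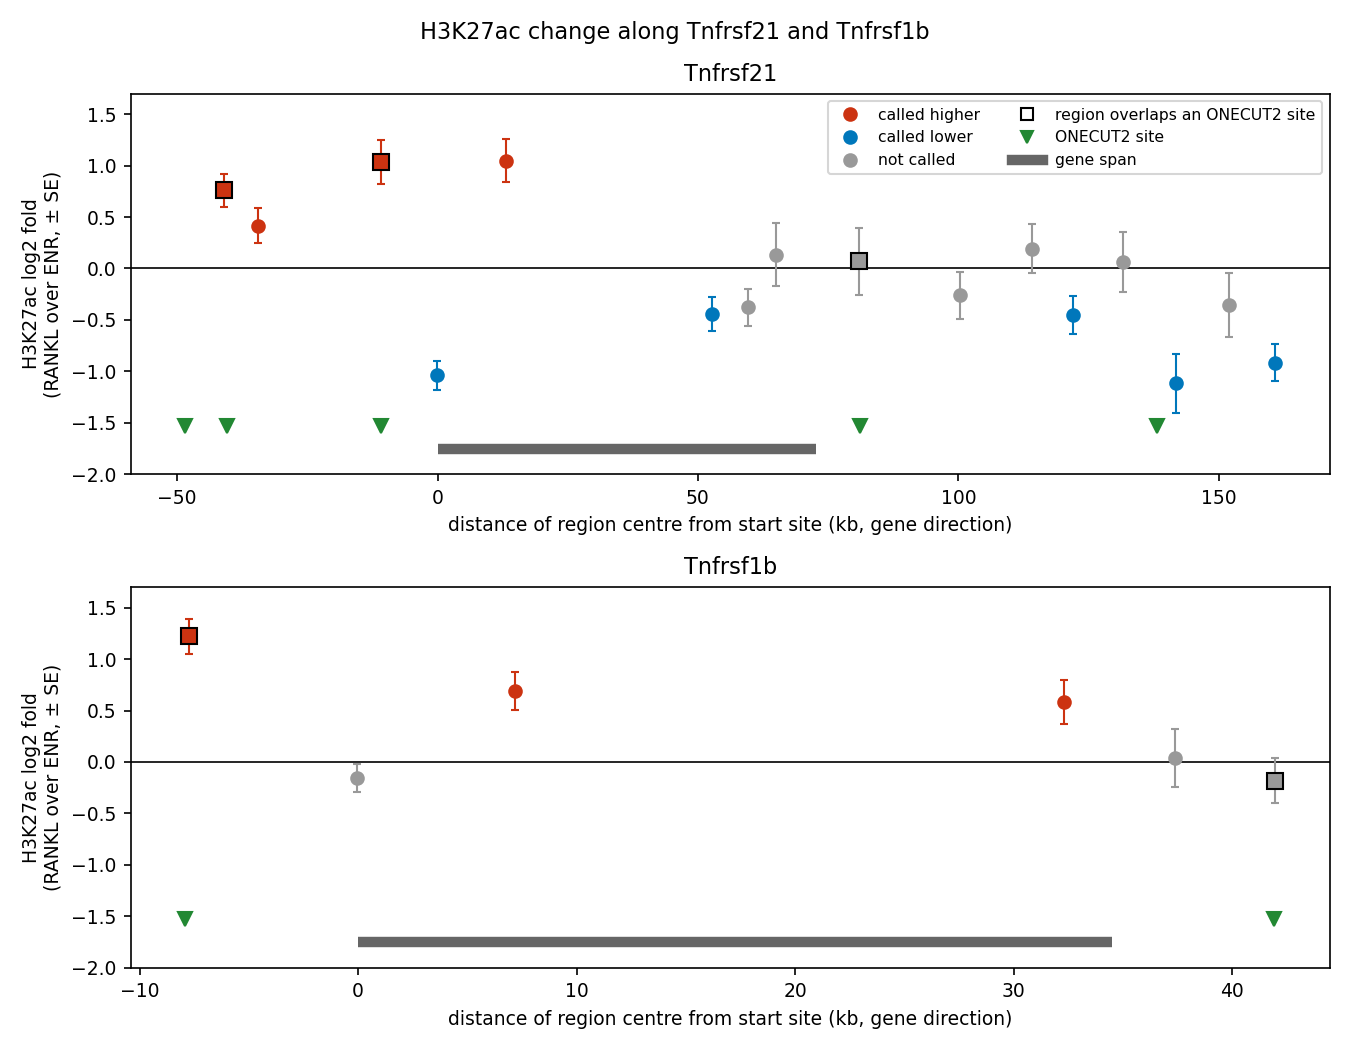
Log2 fold of H3K27ac (y axis, RANKL over ENR, ± SE) against the distance of each region's centre from the start site (x axis, kb in the direction of the gene) for Tnfrsf21 and Tnfrsf1b; squares are regions that overlap an ONECUT2 site, and triangles are the sites. The Tnfrsf21 start region is at -1.04 between neighbours at 1.04 and 1.05, and the Tnfrsf1b start region is uncalled at -0.16 between neighbours at 1.22 and 0.69.

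Fas, whose engagement by Fas ligand triggers apoptosis, carried strong H3K27ac at its start in both arms. The start region (chr19:34289637-34291637) had 52.0, 48.7 and 57.2 CPM in ENR and 49.6, 57.1 and 54.5 CPM with RANKL. The groups overlapped, with a log2 fold of 0.041 ± 0.11 (edgeR adjusted p = 0.818), and this was the most strongly marked of the 32 regions in both arms. With the dependence of the fold on signal strength removed, the same region was called higher, at a log2 fold of 0.33 (adjusted p = 0.00254).

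The summed signal of the 3 Fas regions was 65.5, 62.9 and 67.2 CPM in ENR and 69.4, 73.8 and 73.2 CPM with RANKL. The RANKL libraries were all above the ENR libraries, but the log2 fold of 0.15 ± 0.09 did not pass (edgeR adjusted p = 0.158). It passed in a fit restricted to regions within 2 kb of start sites, which is scaled on those regions alone (log2 fold 0.42, adjusted p = 8.51e-05). The 2 other Fas regions, 43.9 and 79.1 kb past the start and outside the gene, held 3.16 to 8.23 CPM on average and were not called. The Fas regions were not called as changing unequally (edgeR adjusted p = 0.674).

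Tnfrsf1a, the main receptor for soluble TNF, had a single region (chr6:125353841-125355841), inside the gene and 4.1 kb from its start. As a gene it had 23.0, 17.3 and 18.5 CPM in ENR and 29.0, 24.9 and 22.7 CPM with RANKL. The highest ENR library lay above the lowest RANKL library. The log2 fold was 0.39 ± 0.17 with an edgeR adjusted p of 0.0481, while the same counts scaled and tested as a region gave 0.24 ± 0.16 (adjusted p = 0.257). With the signal trend removed, that region was called higher (log2 fold 0.45, adjusted p = 0.0278). The gene call was also lost with the experiment number as a block (adjusted p = 0.0537), by library size (0.0735) and with DESeq2 (0.104). Leaving out ENR replicate 2, ENR replicate 3, RANKL replicate 1 or RANKL replicate 2 gave adjusted p-values of 0.0759 to 0.200.

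Tnfrsf10b, the TRAIL receptor, had 1 weak region 2.7 kb outside the gene (chr14:69762797-69764797). Its libraries had 6.57, 9.13 and 8.06 CPM in ENR and 8.57, 4.23 and 6.51 CPM with RANKL. They overlapped, and the log2 fold of -0.33 ± 0.29 was not called (edgeR adjusted p = 0.396). It held 14 to 27 reads per RANKL library.

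Of the receptors without a death domain, Tnfrsf1b, which binds membrane-bound TNF, had the highest summed fold of the 8 genes. The sum over 6 regions was 84.3, 85.3 and 82.6 CPM in ENR and 132.5, 110.1 and 117.8 CPM with RANKL. All RANKL libraries were above all ENR libraries, with a log2 fold of 0.51 ± 0.08 (edgeR adjusted p = 1.23e-07), 1.42-fold. Of its regions 3 were higher and 3 not called. They were called as changing unequally (F = 9.96, edgeR diffSpliceDGE adjusted p = 2.19e-08), as were 54.3% of genes with several regions. As at Tnfrsf21, this p-value is not taken at face value. In the fit restricted to start sites, which holds only its start region, Tnfrsf1b was not called (log2 fold 0.21, adjusted p = 0.201).

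The largest fold of all 32 regions stood 7.7 kb upstream of the Tnfrsf1b start, outside the gene (chr4:145253617-145255617). It had 10.8, 11.2 and 12.0 CPM in ENR and 28.9, 26.3 and 24.6 CPM with RANKL. The groups were far apart, with a log2 fold of 1.22 ± 0.17 (edgeR adjusted p = 1.03e-10), 2.33-fold. The next protein-coding gene beside this region, 11.5 kb away, was Tnfrsf8, which encodes the TNF receptor family member CD30.

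Inside Tnfrsf1b, the region 7.2 kb past the start (chr4:145238676-145240676) averaged 12.9 ± 0.94 CPM in ENR and 20.9 ± 2.97 CPM in RANKL libraries (SD, n = 3). Its log2 fold was 0.69 ± 0.18 (edgeR adjusted p = 7.33e-04). The region 1.2 kb from the far end of the gene (chr4:145213558-145215558) had a log2 fold of 0.58 ± 0.22 (adjusted p = 0.0226). That call was lost with DESeq2 (adjusted p = 0.0601), without ENR replicate 1 (0.107) and without RANKL replicate 1 (0.133). The start region (chr4:145245899-145247899), the strongest of the gene, had 32.1, 28.2 and 30.4 CPM in ENR and 35.0, 20.8 and 26.0 CPM with RANKL. Its RANKL libraries lay on both sides of the ENR libraries, and its log2 fold of -0.16 ± 0.14 (adjusted p = 0.409) turned to 0.13 with the signal trend removed. Past the far end, the regions 1.9 and 6.5 kb outside the gene had log2 folds of 0.038 ± 0.28 (adjusted p = 0.936) and -0.18 ± 0.22 (adjusted p = 0.560), the first of which turned sign with the signal trend removed.

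Over the 6 libraries, the gene sums most like those of Tnfrsf1b among 6320 genes of similar signal were those of Mocs1 (Pearson r = 0.998), Syngr2 (0.997) and Hs2st1 (0.996). These correlations describe 6 libraries that fall into 2 arms.

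Ltbr, the receptor for lymphotoxin, was the only receptor whose summed H3K27ac was called lower. The sum over its 2 regions was 89.9, 87.8 and 81.9 CPM in ENR and 67.4, 62.9 and 54.2 CPM with RANKL. All RANKL libraries were below all ENR libraries, with a log2 fold of -0.51 ± 0.09 (edgeR adjusted p = 3.75e-06), 1.42-fold lower. Most of the difference lay outside the gene: the region 8.4 kb past its far end (chr6:125296202-125298202) had 42.9, 38.5 and 36.9 CPM in ENR and 21.8, 19.0 and 17.8 CPM with RANKL. That region fell 2.03-fold, with a log2 fold of -1.02 ± 0.14 (adjusted p = 2.31e-11), and its next protein-coding gene was Tuba3a, 10.1 kb away.

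The Ltbr start region (chr6:125312892-125314892) had 47.5, 47.6 and 45.4 CPM in ENR and 39.6, 38.0 and 29.9 CPM with RANKL. Its groups did not overlap, with a log2 fold of -0.40 ± 0.12 (edgeR adjusted p = 0.00407). The call was lost without RANKL replicate 3 (log2 fold -0.28, adjusted p = 0.119). It was also lost once the signal trend was removed (log2 fold -0.10, adjusted p = 0.548). The same 2000 bp also overlap Scnn1a, which encodes a subunit of the epithelial sodium channel, so the region cannot be given to Ltbr alone. The 2 regions were called as changing unequally (F = 10.8, edgeR diffSpliceDGE adjusted p = 0.00271), as were 54.3% of genes with several regions. As at Tnfrsf21, the p-value of that test is not taken at face value. In a fit restricted to regions within 2 kb of start sites, which is scaled on those regions alone, Ltbr had a log2 fold of -0.042 (adjusted p = 0.785).

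Cd40, which receives help from T cells on antigen-presenting cells, had 1 weak region 2.4 kb outside the gene (chr2:165074084-165076084). It had 3.48, 4.29 and 6.00 CPM in ENR and 5.36, 2.11 and 6.75 CPM with RANKL. RANKL replicate 2 was the lowest library and RANKL replicate 3 the highest. The log2 fold of 0.072 ± 0.37 was not called (edgeR adjusted p = 0.906) and turned sign in 4 of the alternatives tried, among them the removal of the signal trend (-0.27).

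Tnfrsf9, a costimulatory receptor of lymphocytes, had 2 regions, 12.4 and 34.5 kb past a start site. The sum was 15.2, 15.6 and 13.8 CPM in ENR and 16.1, 14.6 and 16.7 CPM with RANKL. These overlapped, with a log2 fold of 0.087 ± 0.20 (edgeR adjusted p = 0.738) whose sign turned with the signal trend removed. The strongest of the 2, 15.3 kb outside the gene, had a log2 fold of -0.074 ± 0.25 (adjusted p = 0.849), and no region covered a listed start.

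Tnfrsf12a had no region by the rule. The nearest region (chr17:23672549-23674549) lay 0.9 kb from the gene but overlapped Thoc6, a gene of the mRNA export complex THO. That region had 65.5, 55.5 and 59.8 CPM in ENR and 36.8, 36.5 and 42.2 CPM with RANKL. All RANKL libraries were below all ENR libraries (log2 fold -0.63 ± 0.12, edgeR adjusted p = 1.21e-06).

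By position, 2 of the 4 regions across a receptor's start were lower (Tnfrsf21 and Ltbr) and 2 not called (Fas and Tnfrsf1b). Within 2 kb of a gene end, 1 of 6 regions was higher, 2 lower and 3 not called, beside 7.63% higher and 45.4% lower of all such regions. All of the 3 higher regions with a log2 fold of at least 1 lay 7.7 to 13.2 kb from a start, 2 of them upstream. The number of regions is small, and no test compared these positions.

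ONECUT2, a homeodomain transcription factor of the CUT family, is the factor whose part in RANKL-dependent differentiation the study asks about. In the authors' deposited table all 10 receptor sites were higher with RANKL, as were 99.9% of all listed sites. The table lists only sites that passed the authors' threshold, so the direction of the 10 says nothing particular to the receptors. Their median log2 fold was 1.82, against 1.86 over all listed sites in the authors' deposited table. The sites fell at Tnfrsf21 (5), Tnfrsf1b (2), Fas (2) and Tnfrsf10b (1), and none of those with a listed start lay within 2 kb of it. The table holds no values per library, so no error is given.

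The strongest receptor site stood 10.9 kb upstream of Tnfrsf21 (chr17:43005437-43005837). In the authors' deposited table its log2 mean was 6.85 with RANKL and 4.21 in control, a log2 fold of 2.58 (FDR = 3.58e-18), and it ranked 97 of 7268 by p-value. It lies inside the upstream region of Tnfrsf21 whose H3K27ac rose at a log2 fold of 1.04. The site 40.5 kb upstream had log2 means of 4.51 and 2.62 in the authors' deposited table and lies in the region where H3K27ac rose at 0.76. The other upstream site, 48.4 kb from the start, went from a log2 mean of 0.64 to 4.47 in the authors' deposited table but lies 6.2 kb from the nearest H3K27ac region.

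Downstream of Tnfrsf21, the authors' deposited table lists sites 81.1 kb (log2 fold 0.99) and 138.1 kb (1.55) past the start. The first overlaps a weak region whose H3K27ac was not called (log2 fold 0.068 ± 0.33, edgeR adjusted p = 0.897). The second overlaps none, and lies 2.5 kb from the region that fell at -1.12.

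At Tnfrsf1b, the site 7.9 kb upstream (chr4:145254558-145254958) had a log2 mean of 3.78 with RANKL and was listed at 0 in control in the authors' deposited table. Its listed log2 fold was 3.09 (FDR = 1.33e-04). A log2 mean of exactly 0 in control, a linear mean of 1, was listed for 59 sites, so it is not read as absence of binding. This site was 1 of them. The site lies in the region with the largest H3K27ac fold among the receptors. The other Tnfrsf1b site, 41.9 kb past the start, had log2 means of 4.86 and 2.49 in the authors' deposited table, in a region whose H3K27ac was not called (-0.18).

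The 2 Fas sites, 19.3 kb past the start within the gene and 55.6 kb past it outside, had log2 folds of 1.86 and 1.42 in the authors' deposited table. The Tnfrsf10b site, within the gene, had 1.72. None of these 3 overlapped an H3K27ac region. In all, 5 of the 10 receptor sites overlapped a region by at least 1 bp, against 40.6% of all listed sites.

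Of the 5 receptor regions with an ONECUT2 site, 3 were higher and 2 not called. Over all tested regions 5.34% overlapped a site, and of these 22.6% were higher and 26.3% lower. With 5 regions at 2 genes, no statement particular to the receptors follows, and no test of the difference was run.

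**Figure D4:**
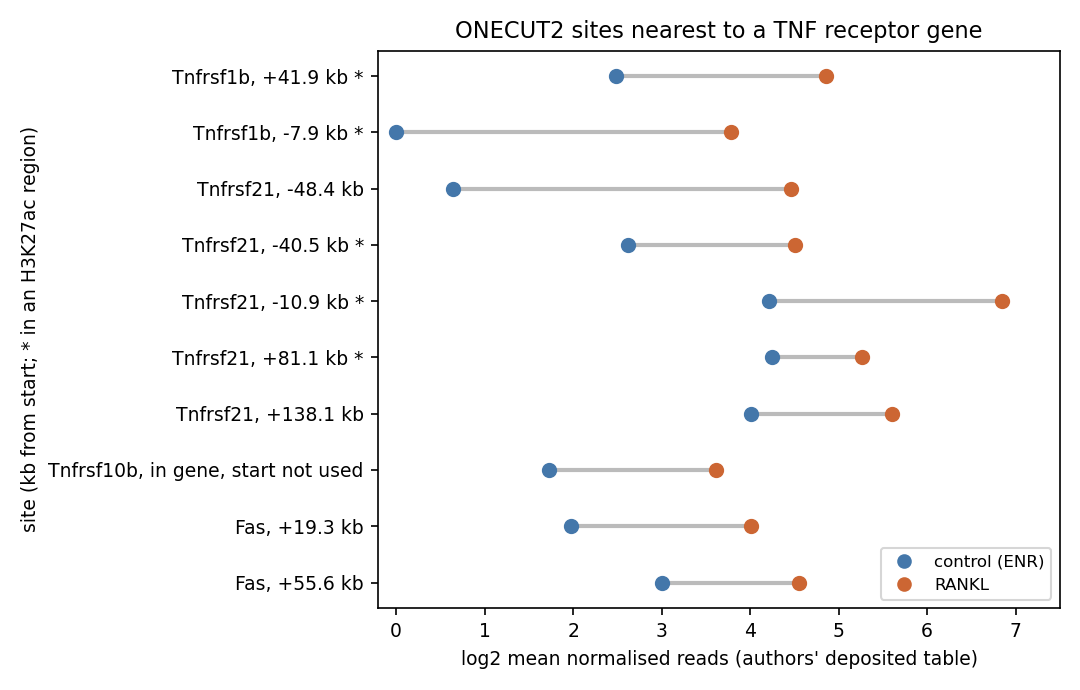
Log2 mean normalised ONECUT2 reads (x axis, authors' deposited table) at each of the 10 receptor sites (y axis, by gene and distance from the start) in control and RANKL organoids; asterisks mark sites in an H3K27ac region. The Tnfrsf21 site at -10.9 kb has the highest RANKL value, 6.85. The Tnfrsf1b site at -7.9 kb is listed at a log2 mean of 0 in control, a value held by 59 listed sites.

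Promoter sequences were searched, on both strands over the 250 bases before the start, for GGNNTTTCC (a kappaB-type motif), TGANTCA (AP-1), GAGGAAGT (an ETS motif of the SPIB type) and ATCAAT or ATCGAT (ONECUT cores). Of 21263 RefSeq promoters, 4.9%, 6.1%, 2.2%, 6.0% and 0.7% held them. Entries were found for 7 of the 9 receptors. Fas held TGAGTCA 211 bases before its start, in the run printed above. The inner start of Tnfrsf9 held GGGATTTCC 42 bases and TGAGTCA 15 bases before it, without overlap, and the other entries held no match. A match describes the letters only. The ratio of observed to expected CpG was 0.77 at Tnfrsf21, 0.65 at Ltbr, 0.55 at Fas and 0.49 at Tnfrsf1b, against a median of 0.53.

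Among the other TNF receptor superfamily genes, 9 of 17 tested (of 19 listed) were higher and 2 lower, with a median log2 fold of 0.35. The shares of all genes were 25.0% higher and 26.9% lower, with a median of 0.013. Relt rose at a log2 fold of 1.96 ± 0.11, Tnfrsf11b, the decoy receptor for RANKL, at 1.53 ± 0.07 and Tnfrsf11a, RANK itself, at 1.01 ± 0.06. Lower were Tnfrsf14 (HVEM), at -0.38 ± 0.09, and Tnfrsf26, at -0.60 ± 0.20 (edgeR adjusted p of 0.00968 or less for these 5). Without RANKL replicate 3, 1 was called lower, and within 2 kb of a start site 3 were higher and 0 lower. Whether the 8 receptors differ from these 17 was not tested.

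Of the ligand genes, 5 of 14 tested (of 18 listed) were higher and 3 lower, beside 25.0% and 26.9% of all genes. Their median log2 fold was 0.22, and 3 were higher when regions were limited to 10 kb. Ltb, which encodes the lymphotoxin beta that Ltbr binds, rose from 23.4 ± 2.92 to 62.6 ± 3.69 CPM (log2 fold 1.40 ± 0.12, edgeR adjusted p = 6.30e-17). This value rests on 1 region. The Ltbr sum was called lower, mostly through a region 8.4 kb outside that gene, and was not called in the fit restricted to start sites. Tnfsf8 rose at 1.50 ± 0.33 and Tnfsf15 at 0.32 ± 0.07. Lower were Tnfsf13b (BAFF), at -0.73 ± 0.12, Fasl, the ligand of Fas, at -0.46 ± 0.16, and Tnfsf9, the ligand of Tnfrsf9, at -0.36 ± 0.14. Of the ligands chosen because they bind a receptor described here, Tnfsf10 (TRAIL, which binds Tnfrsf10b) had a log2 fold of 0.26 and Tnfsf12 (TWEAK, which binds Tnfrsf12a) -0.062. Tnf, Lta and Cd40lg had no region of their own.

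The adaptor and survival genes through which these receptors signal were higher at 7 of 13 tested (of 17 listed), with a median log2 fold of 0.34. By the same test 25.0% of all genes were higher and 26.9% lower. Traf2, an adaptor of TNF receptor signalling, rose from 60.9 ± 2.43 to 226.2 ± 9.54 CPM (log2 fold 1.89 ± 0.07, edgeR adjusted p = 1.65e-36). Traf3, which holds back the alternative NF-kappaB pathway, had 1.13 ± 0.07 and Tank, a TRAF-binding protein, 1.07 ± 0.07. The other 6 were not called.

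Death signalling genes were called in both directions, 4 higher and 4 lower of 11, beside 25.0% and 26.9% of all genes. Their median log2 fold was 0.095. Fadd, the adaptor that links death receptors to caspase-8, rose at 0.96 ± 0.07 and Cflar, an inhibitor of caspase-8, at 0.21 ± 0.07. Diablo, which releases caspases from inhibition, was lower at -0.81 ± 0.17, the caspase inhibitor Xiap at -0.26 ± 0.08 and the necroptosis effector Mlkl at -0.50 ± 0.15 (edgeR adjusted p of 0.012 or less for these 5). Without ENR replicate 2 or RANKL replicate 2, 2 were higher in place of 4.

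Several of these receptors are known from leukocytes, so markers of other cell types were read in the same way. Of 9 leukocyte markers 6 were tested, of which 5 were higher and 1 was not called, with a median log2 fold of 0.72 and a summed signal of 126 to 142 CPM in ENR and 175 to 188 CPM with RANKL. Cd3e and Cd79a had no region, and none of the markers was called higher at a start site. Of 6 mesenchymal markers 3 were higher (143 to 158 against 200 to 214 CPM in sum), and of 5 endothelial markers 3 were higher and 2 lower (383 to 399 against 403 to 424 CPM). Of 7 epithelial markers 3 were higher and 4 lower (1491 to 1661 against 1567 to 1613 CPM), and the 10 M cell markers summed to 304 to 325 against 658 to 719 CPM. Beside these counts stand 25.0% higher and 26.9% lower of all genes. The part of these cell types in the receptor values was not tested.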

How the data were processed

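The H3K27ac table deposited by the authors holds raw whole-number read counts per region, per the file headers and values. It was tested with edgeR 4.0.16 (R 4.3.3), using its quasi-likelihood fit, TMM factors and the filterByExpr filter, without covariates. SE is the log2 fold divided by the square root of F. Counts were tested per region and, with TMM factors of their own, summed per gene, so CPM of the 2 levels are on separate scales. The ONECUT2 table is the authors' deposited DiffBind output, per the submitters' processing notes, with log2 means and log2 folds per site. Its p-values and FDR are the authors', and the highest FDR it lists is 0.0496. A second, normalised H3K27ac table and the input libraries were not used here. The build is mm10, per the submitters' processing notes, while the sources used here give neither aligner nor peak caller.

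Gene spans came from a RefSeq table of GRCm38.p6, the assembly of mm10, and 86.7% of regions were assigned. Ties (2004 regions) went to the gene with the greater overlap, then to the shorter span. Exons and introns were not resolved. Coordinates are as deposited. Whether H3K27ac starts count from 0 or 1 was not settled.

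The receptors, gene lists and tests were chosen with earlier results of these data known. Named singly were regions called with a log2 fold of at least 1 in size, within 2 kb of a gene end, strongest of their gene or on an ONECUT2 site, and per list the 3 genes with the smallest adjusted p in each direction, of which some are not reported here. Other called regions, and ligands of the receptors, were named after their values were seen. Per the labels, libraries of both arms carry experiment numbers, which the block follows. Same-numbered libraries did not deviate together from their group means (correlations of 0.014, -0.028 and -0.0094). The alternatives were library-size scaling, DESeq2 1.42.0, no filter, the experiment as a block, removal of the trend of fold on signal (limma 3.58.1), a minimum fold of 1.5, other distances and leaving out each library. Gene sums scaled as regions were added after seeing the data. The fits were tested on simulated data with few changed regions, as many up as down, and no trend of fold on signal. That test cannot bear on the scaling and trend alternatives.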

Additional observations from a re-analysis of the deposited data

How the results depend on the processing

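The unequal change among regions of Tnfrsf21, Tnfrsf1b and Ltbr was called in all of the alternatives run for that test (3 genes by library size, with the replicate block and without each library). Each of these runs pools the regions of a library in the same way, so their p-values are not taken at face value either. In the main fit 54.3% of genes with several regions were called. Of the 7 higher and 7 lower receptor regions, 3 and 2 were called against a minimum fold of 1.5. With the signal trend removed 9 were higher, among them the Tnfrsf1a region and the Fas start, and 4 lower. Over all regions, trend removal moved the calls from 8120 higher and 11523 lower to 8419 and 8546. With DESeq2 5 receptor regions were higher and 5 lower, beside 6237 and 9540 of all regions. Within 10 kb 5 were higher and 4 lower, a limit applied to the receptor regions only. Of the 2 higher genes, 1 (Tnfrsf1b) was called by library size, DESeq2, the replicate block, or with gene sums scaled as regions, and 1 to 2 without single libraries. Within 2 kb of start sites 1 gene was higher, Fas, and 1 lower, Tnfrsf21, while Tnfrsf1b (adjusted p = 0.201) and Ltbr (0.785) lost their calls. Against the minimum fold, 0 genes were higher and 0 lower. Over all features that minimum left 3012 regions higher and 2613 lower, and 848 and 389 genes. ONECUT2 sites within 10 kb numbered 5 of 10. The replicate block lost the calls of Tnfrsf1a (adjusted p = 0.0537) and of the Tnfrsf21 region at -34.5 kb (0.0616) and changed no other receptor's call.

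Values that turned sign belonged to results not called in the full set of regions. With the signal trend removed, log2 folds were -0.116 (Tnfrsf1b region 37.4 kb past the start), 0.128 (Tnfrsf1b start), -0.166 (Tnfrsf21 region at 81.0 kb), -0.268 (Cd40 region), -0.053 (Tnfrsf9), -0.063 (Tnfrsf21) and -0.182 (Cd40). By library size they were 0.022 (Tnfrsf9 region at 34.5 kb) and -0.0050 (Tnfrsf21). The Cd40 region had -0.024 with the replicate block. With gene sums scaled as regions, Tnfrsf9 had -0.062 and Tnfrsf21 -0.123. Limited to gene ends or starts, Tnfrsf21 had -0.705 and -0.667 and was called lower (adjusted p = 3.81e-06 and 1.00e-05), in fits that hold only its start region. Leaving out single libraries gave ranges of -0.086 to 0.121 (Tnfrsf1b region at 37.4 kb), -0.048 to 0.231 (Tnfrsf21 region at 81.0 kb), -0.0093 to 0.098 (Fas start), -0.326 to 0.420 (Cd40 region), -0.397 to 0.040 (Tnfrsf10b) and -0.197 to 0.581 (Cd40). The cause was not tested. The Cd40 region held 7 to 39 reads per library and the Tnfrsf10b region 14 to 83.

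Counts of the wider lists changed with the minimum fold, the library scaling and distance. The minimum fold left 2 ligands, 4 adaptor genes and 1 death gene higher. With gene sums scaled as regions, 8 other receptors, 3 ligands, 5 adaptor genes and 2 death genes were higher, against 9, 5, 7 and 4 in the main fit. The lower counts of these lists did not change with that scaling. Within 2 kb of a start site, 3 other receptors, 3 ligands, 2 death genes and 0 leukocyte, 0 mesenchymal and 0 endothelial markers were higher, and 1 ligand, 1 death gene and 1 adaptor gene were lower.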
